A study of Mus musculus with 16 samples.

Results

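The 10 genes described here are best known from fat cells. Adipoq, Lep, Retn and Cfd encode the secreted proteins adiponectin, leptin, resistin and adipsin, Plin1 and Cidec encode proteins of the lipid droplet, Fabp4 encodes a fatty acid carrier, and Pck1, Lipe and Scd1 encode enzymes of lipid storage, release and desaturation. The genes were taken by name, with no measured value in the rule, and all 10 were found among the 24454 genes of the count table after Entrez identifiers had been matched to mouse symbols. RNA came from gastrocnemius, a calf muscle, of 16 mice aged 3 months, and poly(A) RNA was sequenced. HSALR mice (line LR20b, homozygous) carry a human skeletal actin gene with a long CTG repeat and serve as a model of myotonic dystrophy type 1. The promoter of this transgene drives it in skeletal muscle, so the model places the repeat in muscle fibres. Control mice were of the FVB/N strain. In each genotype some mice received AICAR, an activator of the energy sensor AMPK, at 500 mg/kg for 7 days, and the others received vehicle. The 4 groups were control with vehicle (n = 3), control with AICAR (n = 3), HSALR with vehicle (n = 5) and HSALR with AICAR (n = 5). Part of each powdered muscle was extracted, so the RNA holds every cell type in that piece of tissue. In such bulk samples, fewer cells of a type and less RNA per cell cannot be told apart.

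White adipocytes lie between the fibres and along the fascia of skeletal muscle, alone or in small strands. Each holds a single large lipid droplet, which perilipin 1 (Plin1) coats and CIDEC enlarges, and from which hormone-sensitive lipase (Lipe) releases fatty acids when catecholamines signal. The adipokines are released into the blood: adiponectin acts through Adipor1, Adipor2 and Cdh13, leptin through Lepr, and adipsin is complement factor D. Other cells share some of these transcripts, since Fabp4 is also made in capillary endothelium and macrophages, Lipe in muscle fibres and Scd1 in many cells that make lipid.

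Libraries held 64890014 to 81987726 counts (median 73021286), and the 10 genes together took 0.0343 to 0.123% of them. Each gene had at least 84 counts in every library (the lowest was Lep), so counting error was small beside the differences between mice. Between mice of a group, counts varied well beyond sampling (chi-square over its degrees of freedom, 25.8 to 146). In 6 libraries the keratin gene Krt14 was above 1 CPM (normalized read count scaled to a common library size), a mark of epidermal RNA: 4 of 5 HSALR vehicle, 1 of 3 control vehicle and 1 of 3 control AICAR. One more library stood apart. The control AICAR mouse S449 had the highest Myh4, the fastest myosin heavy chain, at 77356 CPM against 24907 to 52177 in the other mice, and the lowest myoglobin (Mb), at 2348 CPM. Defining muscle genes were abundant in every library (Acta1, 24411 to 37705 CPM).

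On a scale that also divides by gene length (RPKM), Fabp4 was the most abundant of the 10 with a mean level over the 16 mice of 283 RPKM. Cfd followed with 101, Scd1 with 89.1, Adipoq with 19.5, Lipe with 8.78, Cidec with 8.19, Plin1 with 8.04, Retn with 4.51, Pck1 with 2.88 and Lep with 2.24 RPKM. Fabp4 was above Cfd, and Scd1 above Adipoq, in 16 of 16 mice. Adipoq was above Lipe and Plin1 above Retn in 15 of 16, and Retn was above Pck1 in 14. The other neighbours changed places more often, with Cfd above Scd1 in 11 of 16 mice, Lipe above Cidec in 9, Cidec above Plin1 in 8 and Pck1 above Lep in 10, so these 4 pairs were not ordered beyond their spread.

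Plin1 and Lipe share chromosome 7 and Lep and Cidec chromosome 6, and the others lie on separate chromosomes. In the mouse build mm10 (GRCm38) Adipoq is at chr16:23146536-23157968 on the plus strand, Plin1 at chr7:79721164-79732904 on the minus strand, Cidec at chr6:113424634-113435760 on the minus strand, Cfd at chr10:79890853-79892655 on the plus strand and Lep at chr6:29060221-29073876 on the plus strand. Lipe is the 1 member with another annotated gene across it, the antisense RNA 4732471J01Rik on the opposite strand. Whether counting used the strand was not stated, so reads of these 2 genes may be mixed.

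Promoter windows from RefSeq (GRCm38.p6; 250 bases before to 50 after the transcription start) were at hand for 8 of the 10 genes, 10 windows in all. Shown are the 4 genes that followed each other most closely over the mice and Lep, which departed from them in several mice. Capitals mark matches, on either strand, to the C/EBP-type pattern TTNNGNAA and to the box CCAAT:
Adipoq (chr16:23146286-23146585, plus strand): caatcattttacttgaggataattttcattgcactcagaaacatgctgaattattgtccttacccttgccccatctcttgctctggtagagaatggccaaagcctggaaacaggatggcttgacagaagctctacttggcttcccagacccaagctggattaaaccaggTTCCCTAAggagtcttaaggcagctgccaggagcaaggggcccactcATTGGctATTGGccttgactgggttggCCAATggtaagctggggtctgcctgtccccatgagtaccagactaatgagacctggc
Plin1 (chr7:79732727-79733026, minus strand): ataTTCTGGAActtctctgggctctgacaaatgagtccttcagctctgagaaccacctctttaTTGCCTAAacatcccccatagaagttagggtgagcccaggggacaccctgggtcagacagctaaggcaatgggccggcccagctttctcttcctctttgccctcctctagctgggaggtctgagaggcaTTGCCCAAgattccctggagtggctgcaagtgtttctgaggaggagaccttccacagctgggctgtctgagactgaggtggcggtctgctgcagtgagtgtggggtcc
Cidec (chr6:113435711-113436010, minus strand): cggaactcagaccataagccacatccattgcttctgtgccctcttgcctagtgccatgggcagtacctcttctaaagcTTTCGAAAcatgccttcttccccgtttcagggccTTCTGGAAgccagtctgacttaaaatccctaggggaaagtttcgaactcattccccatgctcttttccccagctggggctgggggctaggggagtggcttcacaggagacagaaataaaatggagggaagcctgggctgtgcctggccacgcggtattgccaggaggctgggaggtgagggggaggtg
Cfd (chr10:79890603-79890902, plus strand): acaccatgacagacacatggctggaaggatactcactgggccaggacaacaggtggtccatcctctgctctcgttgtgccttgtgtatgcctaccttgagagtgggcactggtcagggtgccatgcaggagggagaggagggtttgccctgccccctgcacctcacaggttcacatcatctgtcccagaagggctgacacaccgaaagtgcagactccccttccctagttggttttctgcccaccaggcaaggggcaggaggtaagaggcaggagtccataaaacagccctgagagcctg
Lep (chr6:29059971-29060270, plus strand): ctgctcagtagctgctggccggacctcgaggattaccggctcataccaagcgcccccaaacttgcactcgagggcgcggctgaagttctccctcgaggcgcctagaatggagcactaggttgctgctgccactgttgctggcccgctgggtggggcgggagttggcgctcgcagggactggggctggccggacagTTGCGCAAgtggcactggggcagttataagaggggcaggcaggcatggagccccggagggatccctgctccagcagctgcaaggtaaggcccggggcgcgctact

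The pattern TTNNGNAA, a loose form of the site of the C/EBP factors of fat cell differentiation, was in 6 of the 10 windows and in 40.68% of 32851 mouse promoter windows of the same length. Lep held TTGCGCAA at position -55 from the start, which reads the same on both strands and so counts on each. Plin1 held 3 matches, at positions -247, -187 and -58. CCAAT (or ATTGG) was in the Adipoq window, 3 times, and in no other of the 10, against 37.41% of all windows. No match overlapped one of the other pattern. The nuclear receptor half-site AGGTCA and the TATA box TATAAA were in 0 of the 10 windows, against 16.26% and 13.62% of all windows. These are matches of letters in a short window and not shown sites of binding.

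Adipoq, the gene for adiponectin and the one most particular to fat cells, ranged 5.63-fold over the 16 mice. Its levels in control muscle after vehicle were 15.0, 15.1 and 28.0 normalized CPM, and after AICAR 7.89, 28.4 and 30.7. In HSALR muscle they were 12.5, 19.0, 20.0, 31.0 and 34.8 CPM after vehicle and 18.8, 20.2, 23.6, 35.5 and 44.4 after AICAR. Low and high mice occurred in each group, and the groups overlapped in every comparison. Group means were 19.3 ± 7.50 (SD, n = 3), 22.3 ± 12.5 (n = 3), 23.5 ± 9.20 (n = 5) and 28.5 ± 11.1 CPM (n = 5) in the same order.

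**Figure D1:**
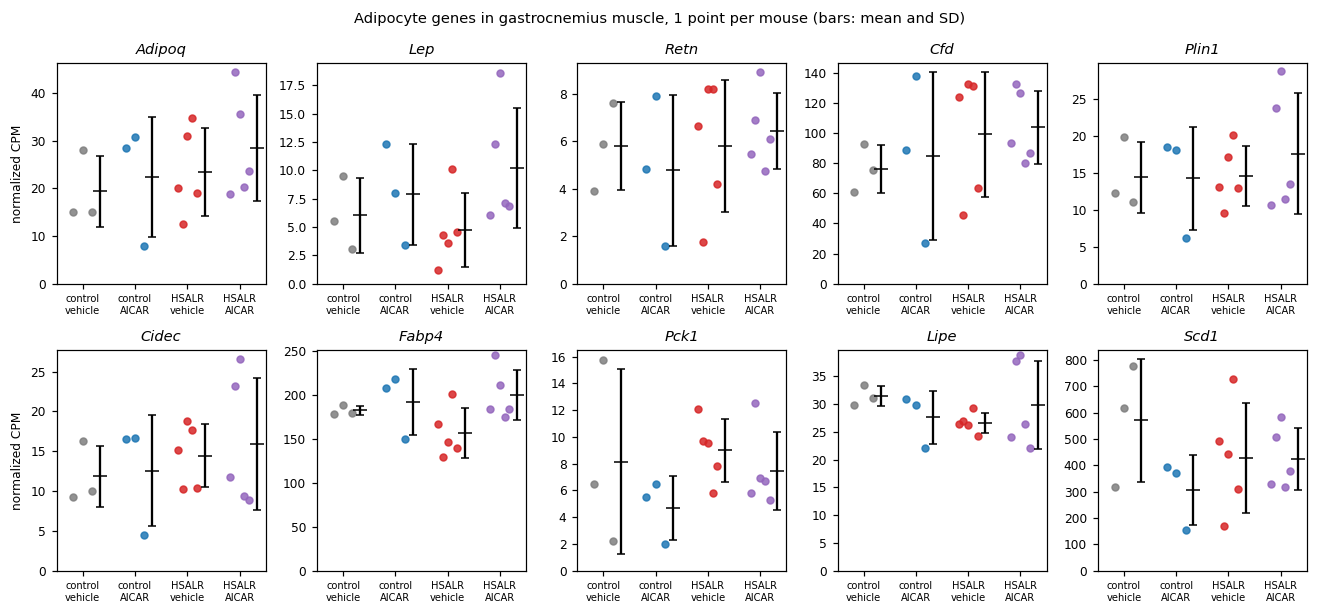
Normalized CPM of the 10 adipocyte genes (vertical axis, linear, from 0) in each mouse (points) of the 4 groups, with the group mean and SD (bars). The groups that were compared overlap in every panel apart from Lipe in control and HSALR muscle after vehicle, and the control AICAR mouse S449 is the low point in 7 panels.

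Plin1 had its lowest and its 2 highest levels in the same mice as Adipoq. Control muscle held 11.0, 12.2 and 19.9 CPM after vehicle and 6.17, 18.1 and 18.5 after AICAR. HSALR muscle held 9.60, 12.9, 13.0, 17.1 and 20.0 CPM after vehicle and 10.7, 11.4, 13.4, 23.7 and 28.7 after AICAR. The 2 mice at the top, S455 and S460 of the HSALR AICAR group, were also the top 2 for Adipoq and for Cidec, where they had 23.1 and 26.6 CPM against 4.53 to 18.8 in the other 14 mice.

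Cfd, one of the most abundant adipocyte transcripts, was lowest in S449 as Adipoq was, and highest in S448, a control mouse with AICAR. After vehicle it was 60.5, 75.2 and 92.7 CPM in control and 45.5, 63.6, 124, 131 and 133 CPM in HSALR muscle. After AICAR it was 27.0, 88.7 and 138 CPM in control and 80.0, 86.5, 93.2, 126 and 133 CPM in HSALR muscle. Retn, the gene for resistin, ranged from 1.58 CPM in S449 to 8.92 CPM in S460, and group means were between 4.77 ± 3.17 (SD, n = 3, control with AICAR) and 6.42 ± 1.61 CPM (SD, n = 5, HSALR with AICAR).

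Lep had the widest range of the 10, 15.9-fold. In control muscle its level was 3.04, 5.49 and 9.54 CPM after vehicle and 3.38, 7.96 and 12.3 CPM after AICAR. In HSALR muscle it was 1.17, 3.60, 4.34, 4.58 and 10.1 CPM after vehicle and 6.05, 6.85, 7.13, 12.3 and 18.6 CPM after AICAR. A single HSALR vehicle mouse, S458 at 10.1 CPM, lay within the range of the HSALR AICAR mice. The lowest value, 1.17 CPM in the HSALR vehicle mouse S451, came with an Adipoq level near the middle (20.0 CPM), and the ratio of Lep to Adipoq CPM ran from 0.0584 in that mouse to 0.524 in S460.

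Fabp4 and Lipe varied least. Fabp4 was 179, 180 and 189 CPM in control muscle after vehicle and 150, 208 and 219 CPM after AICAR, and in HSALR muscle 130, 139, 146, 167 and 201 CPM after vehicle and 175, 184, 184, 211 and 245 CPM after AICAR. Its highest and lowest mice differed 1.89-fold. Lipe was 29.8, 31.0 and 33.4 CPM in control and 24.3, 26.2, 26.5, 27.0 and 29.3 CPM in HSALR muscle after vehicle, and these groups did not overlap. Its full range was 1.76-fold. Lipe was the 1 member of 10 without overlap in that comparison, in which 29.7% of all tested genes showed none. In the other comparisons 0 of 10 members lacked overlap, beside 17.7% of tested genes for AICAR in HSALR, 33.1% for AICAR in control and 26.5% for HSALR against control after AICAR.

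Scd1, the stearoyl-CoA desaturase, was spread widely within groups. Control muscle held 317, 619 and 778 CPM after vehicle and 154, 372 and 394 CPM after AICAR. HSALR muscle held 170, 312, 442, 493 and 727 CPM after vehicle and 317, 328, 378, 508 and 584 CPM after AICAR. Pck1, which supplies glycerol for triglyceride in fat cells, ranged 7.97-fold, from 1.98 CPM in S449 to 15.7 CPM in the control vehicle mouse S446, and was 12.5 CPM in S455 against 5.28 to 6.90 CPM in the other 4 HSALR AICAR mice.

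Over the members, the SD within groups was 0.221 (Fabp4) to 0.817 (Lep) on the log2 scale with a median of 0.658, against a median of 0.141 over the 15487 genes that passed the filter on low counts. All 10 passed it. S449 was the lowest of the 16 mice in 7 genes and among the 4 lowest in 10 of 10. S455 and S460 were among the 4 highest in 8 genes each, and the HSALR vehicle mouse S458 in 7. Between the 6 libraries with epidermal RNA and the 10 without, Adipoq had medians of 24.8 and 21.9 CPM and overlapping ranges, 12.5 to 34.8 and 7.89 to 44.4 CPM.

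**Figure D2:**
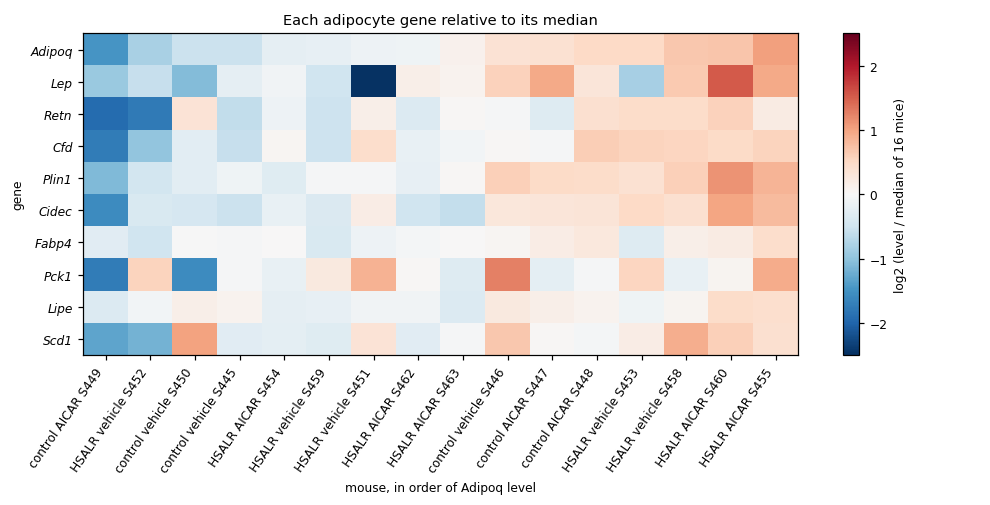
Each adipocyte gene (row) in each mouse (column, in order of rising Adipoq level), coloured by log2 of its level over its median in the 16 mice. Blue turns to red from left to right in most rows, S449 at the left is among the 4 lowest mice in all 10, and the dark cell of Lep is the HSALR vehicle mouse S451 at 1.17 CPM.

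Group differences come from edgeR's quasi-likelihood fit across all 15487 genes, with Benjamini-Hochberg adjusted p-values and a threshold of 0.05. Comparison of HSALR with control muscle after vehicle asked what differs between the transgenic line and FVB/N mice. The repeat cannot be told apart there from the rest of the transgene or from the line. In it 0 of 10 adipocyte genes passed, while 26.9% of all tested genes did. The log2 fold changes ran from -0.42 (Scd1) to 0.38 (Cfd) with a median of 0.01, the median over all tested genes being 0.01 too. Adipoq differed by 0.28 (SE 0.43, adjusted p = 0.678), and Lipe, the gene without overlap, by -0.24 (SE 0.17, adjusted p = 0.318). No member had an unadjusted p under 0.05. Epidermal RNA was in 4 of 5 HSALR and 1 of 3 control libraries of this comparison, and without the epidermal libraries, which leaves S451 as the lone HSALR vehicle mouse, Adipoq was at -0.11 and Lep moved from -0.34 to -2.69 (adjusted p = 0.148).

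AICAR against vehicle in HSALR muscle gave 0 of 10 past the threshold, beside 26.6% of all tested genes, and 2 at an unadjusted p under 0.05. Fabp4 had a log2 fold change of 0.35 (SE 0.13, 95% interval 0.08 to 0.62, adjusted p = 0.0549) and Lep of 1.09 (SE 0.49, interval 0.04 to 2.15, adjusted p = 0.117). Adipoq stood at 0.28 (SE 0.37, adjusted p = 0.615), and 8 of 10 values were above 0 with a median of 0.16 (-0.02 over all tested genes). The Fabp4 result depended on how the libraries were fitted: DESeq2 called it (log2 fold change 0.36, adjusted p = 0.0248), limma with voom called 0 of 10, and without the HSALR vehicle mouse S458 both Fabp4 and Lep passed. The compared groups also differed in epidermal RNA, which was in 4 of 5 vehicle and 0 of 5 AICAR libraries, where all 8 epidermal markers were lower (Krt14, 2.98 to 32.2 CPM in those 4 libraries and at most 0.04 CPM after AICAR), and in 4 of 8 endothelial markers, which rose (Tie1, log2 fold change 0.41, SE 0.05, adjusted p = 0.000101). Of the 8 macrophage markers, Mrc1 (0.39, SE 0.11, adjusted p = 0.0146) and Cd163 (0.38, SE 0.13, adjusted p = 0.0455) rose and Csf1r fell (-0.32, SE 0.11, adjusted p = 0.0468), the last 2 losing the call in 9 of 16 fits with 1 mouse left out. The part of endothelial and macrophage RNA in these values was not tested. Without the epidermal libraries, which again leaves S451 alone after vehicle, Fabp4 was at 0.25 (adjusted p = 0.501) and Lep at 3.12 (adjusted p = 0.0817).

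In control muscle, AICAR against vehicle again gave 0 of 10, beside 13.2% of all tested genes, and none at an unadjusted p under 0.05. The values nearest to the threshold were Scd1 with a log2 fold change of -0.90 (SE 0.46, adjusted p = 0.216) and Pck1 with -0.81 (SE 0.55, adjusted p = 0.36). Both rested on single mice: Scd1 was at -0.58 without S449 and -0.61 without S450, and Pck1 at -0.44 without S449, 0.10 without S446 and -1.25 without S450. Epidermal RNA was in 1 of 3 libraries of each group, and without them Pck1 was at -1.58 (adjusted p = 0.141) and Adipoq at -0.26. With all mice, Adipoq was at 0.21 (SE 0.47, adjusted p = 0.826). After AICAR, HSALR against control muscle gave 0 of 10 beside 21.8% of all tested genes, 10 of 10 values above 0 with a median of 0.35 (0.00366 over all tested genes), and Adipoq at 0.35 (SE 0.43, adjusted p = 0.59). The mouse S449 is 1 of the 3 control mice in that comparison, and without it the Adipoq value was -0.052. The AICAR effects of both genotypes differed for 0 of 10 genes beside 0.691% of all tested genes, with the lowest adjusted p at 0.501 (Scd1). In these last 2 comparisons 0 members had an unadjusted p under 0.05, and outside the AICAR comparison in HSALR both DESeq2 and limma with voom called 0 of 10.

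The intervals bound what these libraries could show. Over the 5 comparisons the median SE of the members was 0.363 to 0.594 on the log2 scale, against 0.104 to 0.17 over all tested genes. For Adipoq the 95% interval of the AICAR effect was -0.50 to 1.06 in HSALR and -0.80 to 1.21 in control muscle, so a doubling lay within both.

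**Figure D3:**
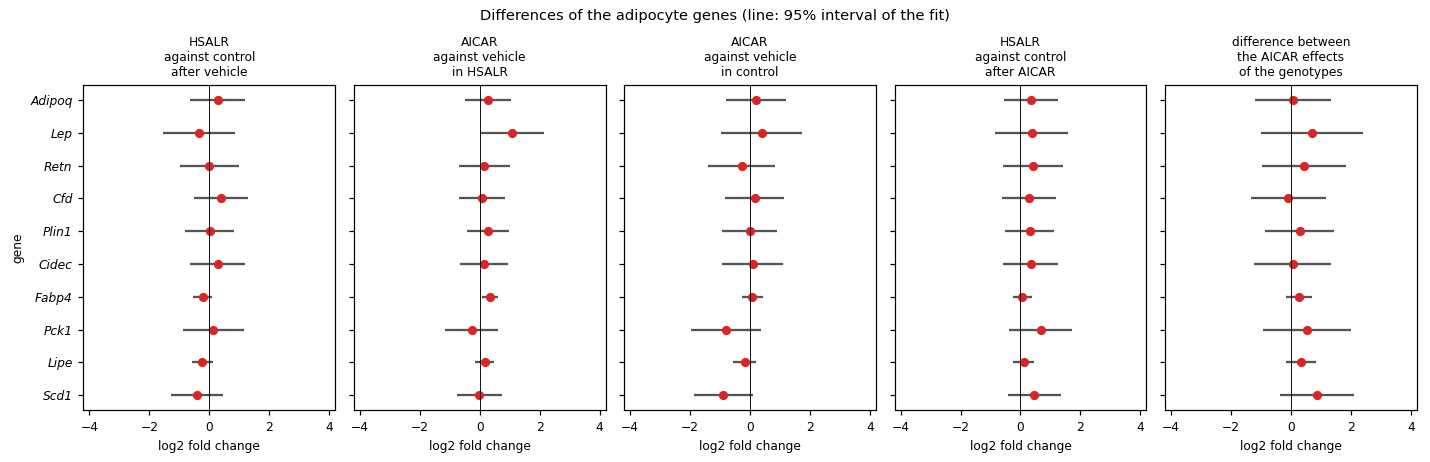
Log2 fold change of each adipocyte gene (point) with the 95% interval of the edgeR fit (line) in the 5 comparisons. Intervals span 0 except those of Lep and Fabp4 for AICAR in HSALR muscle, which did not pass after adjustment, and they are short only for Fabp4 and Lipe.

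Whether the genes rose and fell together was read from the 16 mice, as Pearson's r and Spearman's rho of log2(normalized CPM + 0.5) with Adipoq, each with a two-sided permutation test. The droplet genes followed Adipoq most closely. Plin1 had r = 0.947 (permutation p = 1e-05, the smallest that 100000 permutations can give) and rho = 0.938 (permutation p = 1e-05), and r = 0.909 without the 2 mice farthest from the median Adipoq level, S449 and S455. Cidec had r = 0.905 (permutation p = 1e-05), rho = 0.847 (permutation p = 0.00011) and r = 0.815 without those mice.

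Among the adipokines, Cfd had r = 0.904 (permutation p = 1e-05), rho = 0.85 (permutation p = 3e-05) and r = 0.841 without the 2 mice. Retn had r = 0.806 (permutation p = 0.00013), rho = 0.756 (permutation p = 0.00106) and r = 0.723. Lep had r = 0.628 (permutation p = 0.00895), rho = 0.735 (permutation p = 0.00185) and r = 0.583. All 3 kept the direction without the 2 extreme mice.

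The fatty acid carrier and the enzymes were more loosely tied. Fabp4 had r = 0.695 (permutation p = 0.00282), rho = 0.7 (permutation p = 0.00362) and r = 0.597 without the 2 mice. For Scd1, r was 0.684 (permutation p = 0.00382), rho 0.576 (permutation p = 0.0216), and r without the 2 mice 0.531 (permutation p = 0.0494). Lipe had r = 0.611 (permutation p = 0.0121) but rho = 0.45 (permutation p = 0.0825) and r = 0.372 without the 2 mice (permutation p = 0.191). Pck1 had r = 0.542 (permutation p = 0.0308), rho = 0.312 (permutation p = 0.241) and r = 0.172 without the 2 mice (permutation p = 0.569). The relations of Lipe and Pck1 with Adipoq rested on those 2 mice, and that of Scd1 no longer passed without them once the 9 relations were adjusted for.

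**Figure D4:**
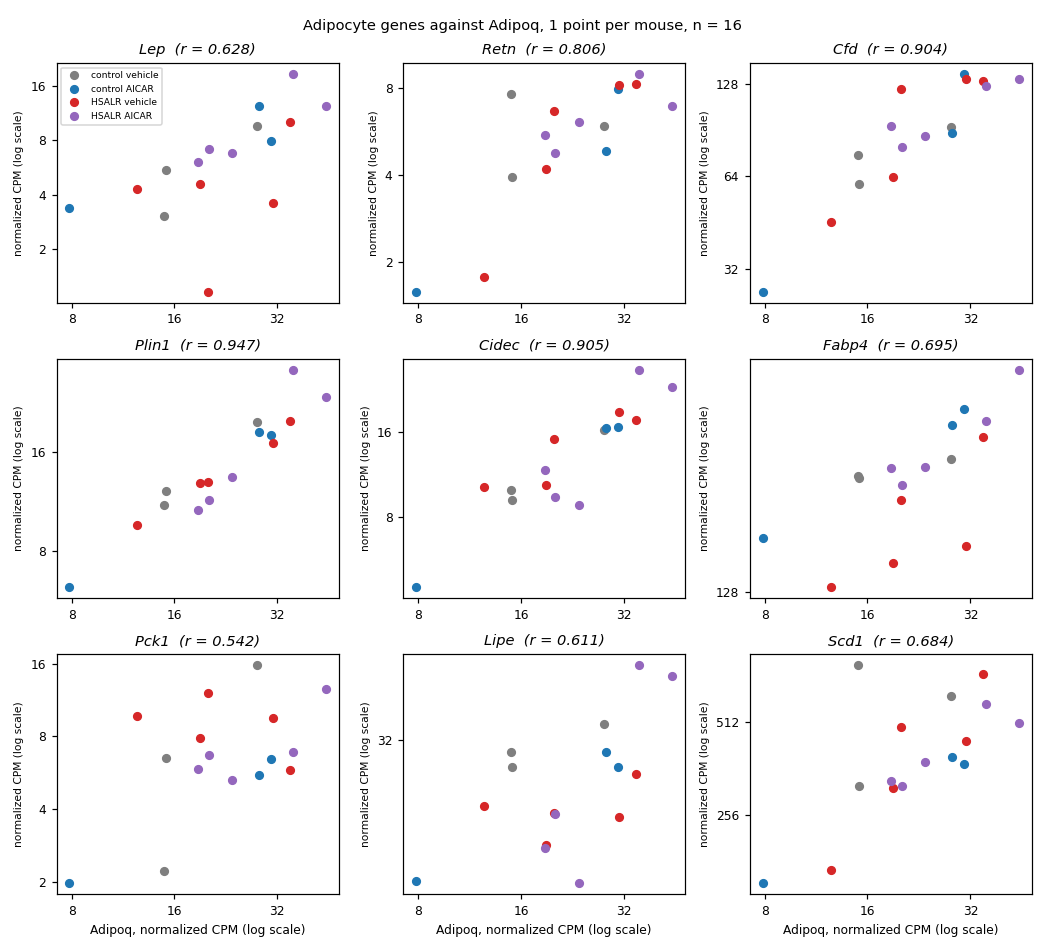
Normalized CPM of the other 9 adipocyte genes (vertical axes, log scale) against Adipoq (horizontal axes, log scale), 1 point per mouse coloured by group, with Pearson's r above each panel. Plin1, Cidec and Cfd rise with Adipoq along a narrow band in all 4 groups, Lep leaves it in the HSALR vehicle mice S451 and S453, and Pck1 is scattered.

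With group means removed and mice permuted within groups, so that differences between the groups did not enter, r with Adipoq was 0.957 for Plin1, 0.911 for Cidec, 0.9 for Cfd, 0.855 for Fabp4, 0.819 for Retn, 0.805 for Scd1, 0.714 for Lipe, 0.672 for Lep and 0.563 for Pck1 (permutation p between 7e-05 and 0.0419). At r of 0.8 or more, 4 of the 9 genes were among the 38 of 15486 tested genes (0.245%) over all mice, and 6 of 9 were among the 199 genes (1.29%) with group means removed. Plin1 ranked first of 15486 genes by either measure. A fit across all tested genes, with a mean for each group and a slope on the log2 Adipoq level, gave a positive slope at an adjusted p under 0.05 for 6 of the 9 genes and for 1.98% of all genes, and a negative one for 0 of 9 and 0.329%. The 6 were Plin1 (slope 0.88, SE 0.08, edgeR adjusted p = 0.000234), Cidec, Cfd, Fabp4, Retn and Scd1, and the other 3 had adjusted p-values of 0.0689 (Lipe), 0.0779 (Lep) and 0.177 (Pck1).

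The relations were also computed apart for libraries with and without epidermal RNA. Over the 10 libraries without it, r with Adipoq was 0.943 for Plin1, 0.916 for Cidec, 0.888 for Cfd, 0.875 for Retn and 0.914 for Fabp4. Over the 6 libraries with it, r was 0.996, 0.942, 0.947, 0.748 and 0.591 for the same genes. For Scd1 it was 0.878 without and 0.449 with epidermal RNA, for Lipe 0.755 and 0.11, for Pck1 0.708 and 0.191, and for Lep 0.655 and 0.648. Leaving out S449, r stayed at 0.92 for Plin1, 0.848 for Cidec and 0.845 for Cfd, and was 0.691 for Retn, 0.527 for Scd1, 0.512 for Lipe and 0.302 for Pck1 with the last 3 no longer past the threshold.

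The strength of the response differed between genes. A slope of 1 on log2 axes means that a gene changed in proportion to Adipoq. On those axes Cfd had a slope of 0.93 (SE 0.12), Cidec of 0.88 (SE 0.11), Lep of 0.87 (SE 0.29), Retn of 0.83 (SE 0.16) and Plin1 of 0.81 (SE 0.07). Scd1 had 0.71 (SE 0.20) and Pck1 0.62 (SE 0.26). Fabp4 at 0.28 (SE 0.08) and Lipe at 0.23 (SE 0.08) rose much less steeply. On the linear scale, the line for Fabp4 met zero Adipoq at 124 ± 14.4 CPM (SE), 68.3% of its mean level, and that for Lipe at 20.5 ± 2.59 CPM, 71.5% of its mean. The same intercept was 2.28 ± 1.67 CPM for Plin1, 1.31 ± 1.84 for Cidec and -0.61 ± 2.18 for Lep, none of them over 2 SE from 0. Between these lay Pck1 (50.5% of its mean), Scd1 (47.3%), Retn (31.5%) and Cfd (22.8%), also within 2 SE of 0. Each intercept extrapolates below the lowest Adipoq level, 7.89 CPM.

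Among the 45 pairs of the 10 genes, r was positive in 45, from 0.0816 (Fabp4 and Pck1) to 0.947 with a median of 0.628, and without the 2 extreme mice it was positive in 41. High pairs that did not include Adipoq were Plin1 with Cidec (0.934), Retn with Cfd (0.925) and Retn with Scd1 (0.889). Lep was close to Plin1 (0.684) and far from Pck1 (0.144), Scd1 (0.262), Retn (0.29) and Cfd (0.332). Of genes outside the 10, Lep was most like Sncg (r = 0.951) and Nnat (0.895), Retn most like Cdo1 (0.959), and Plin1 most like Lgals12. In S451, where Lep was lowest, Nnat was at 0.738 CPM and Sncg at 5.73 CPM, the lowest of 16 mice in both cases, while Retn was at 6.64 CPM, above its median. Sncg and Nnat were picked by their r with Lep over these same mice, so their low levels in S451 are no separate support.

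The 10 genes outside the list with the highest r to Adipoq, of 12991 with a mean count of at least 50, were Lgals12 (r = 0.943), Nnmt (0.935), Glb1l2 (0.932), Slc7a10 (0.921), Tmem45b (0.91), Ifi27l2a (0.91), Ccdc80 (0.901), Prkar2b (0.895), Trf (0.894) and Rab34 (0.886). Lgals12 encodes a galectin of lipid droplets, Slc7a10 an amino acid transporter, Prkar2b a regulatory subunit of protein kinase A, Nnmt an enzyme that methylates nicotinamide and Trf transferrin. With group means removed their r was 0.904 to 0.95, and without the 2 extreme mice 0.762 to 0.909. None of them passed the threshold in any of the 5 comparisons, the lowest edgeR adjusted p being 0.23 (Ccdc80). Of all tested genes, 0.691 to 26.9% passed in a comparison. The 10 were picked by their r with Adipoq over the same mice, so these values are no separate support.

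Lists of other adipocyte and lipid genes were counted over the same fits. Over all tested genes, 15.4% were higher and 11.5% lower in HSALR than in control muscle after vehicle, and 12.2% and 9.64% after AICAR. With AICAR 13.7% were higher and 13% lower in HSALR muscle and 8.4% and 4.77% in control muscle. Without the epidermal libraries S451 is the lone HSALR vehicle mouse, assumed to vary like the mice of the other groups, so a lost call there also reflects the smaller group. In that fit 22 of the 27 calls over all lists in the comparison after vehicle were lost. Leaving aside the epidermal and sebaceous markers, 17 of 23 calls of AICAR in HSALR muscle, 7 of 10 of AICAR in control muscle and 4 of 14 of genotype after AICAR were lost in the same way. None of these calls changed sign, and the fold change moved by more than 1.5 times in 9 of the 27, 5 of the 23, 2 of the 10 and 0 of the 14. Of 15 other white adipocyte genes, 13 had a positive r with Adipoq (median 0.49), among them Sncg (0.779), the beta-3 adrenergic receptor Adrb3 (0.768), Acvr1c (0.73) and Rbp4 (0.68). Their summed level, of which Plin4 is the largest share, did not follow it (r = 0.00841, permutation p = 0.975, and r = -0.121 with group means removed). HSALR muscle after vehicle had 1 of the 15 higher and 1 lower, the corepressor Nrip1 with a log2 fold change of 0.99 (SE 0.23, adjusted p = 0.00524) and the droplet gene Plin4 with -0.45 (SE 0.14, adjusted p = 0.0224). Without the epidermal libraries Nrip1 was at 0.38 and Plin4 at -0.58 in that comparison. Plin4, the most abundant gene of that list, rose with AICAR in HSALR muscle (0.57, SE 0.12, adjusted p = 0.00285) and had an r of -0.23 with Adipoq. Nrip1 was the gene of the 15 that rose with AICAR in control muscle (1.07, adjusted p = 0.0118, lost without S450 at 0.0506), and none passed between genotypes after AICAR. The lower level of Plin4 after vehicle no longer passed without the control mouse S445 (adjusted p = 0.052) or S446 (adjusted p = 0.0879).

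Genes of fatty acid and triglyceride synthesis went both ways with Adipoq, with a positive r in 6 of 13 and a median of -0.01. Their summed level had r = -0.184 (permutation p = 0.495), and r = -0.588 with group means removed. AICAR in HSALR muscle had 2 of them higher and 1 lower: the phosphatidate phosphatase Lpin1 (log2 fold change 1.41, SE 0.17, adjusted p = 5.23e-05), the glycerol phosphate dehydrogenase Gpd1 (0.68, SE 0.11, adjusted p = 0.00055) and the elongase Elovl6 (-2.29, SE 0.53, adjusted p = 0.00538). In HSALR muscle after vehicle, 2 were lower, the malic enzyme Me1 by -1.01 (SE 0.11, adjusted p = 1.05e-05) and Gpd1 by -0.40 (SE 0.13, adjusted p = 0.0322), the latter call being lost without S445, S446 or S451 (adjusted p up to 0.162). After AICAR, Me1 alone was lower in HSALR muscle (-0.65, adjusted p = 0.000734). In control muscle AICAR had 2 higher, Lpin1 (1.17, adjusted p = 0.00344) and Gpd1 (0.47, adjusted p = 0.046), and 1 lower, Me1 (-0.44, adjusted p = 0.0323), of which Gpd1 was lost in 12 and Me1 in 4 of 16 fits with 1 mouse left out. Without the epidermal libraries that Me1 value was -0.25, and Gpd1 for AICAR in HSALR muscle was 1.03. Elovl6 and Fasn, the fatty acid synthase, were highest in the control vehicle mouse S450 (30.6 and 408 CPM, against 2.25 to 21.6 and 18.8 to 234 CPM in the others), which also had the highest Scd1.

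Of 11 lipolysis genes, Prkar2b (r = 0.895) and the phosphodiesterase Pde3b (0.806) followed Adipoq, and the median r was 0.11. AICAR raised 2 of the 11 in HSALR muscle, the lipase inhibitor G0s2 (2.15, SE 0.27, adjusted p = 6.57e-05) and the droplet coat Plin3 (0.58, SE 0.14, adjusted p = 0.00762). The Plin3 value was 0.34 without the epidermal libraries (adjusted p = 0.238). After vehicle 2 of the 11 were lower in HSALR muscle, Plin3 (-0.57, adjusted p = 0.0178) and the fatty acid transporter Cd36 (-0.42, adjusted p = 0.0456). Without the control mouse S450 they were at -0.27 (adjusted p = 0.172) and -0.28 (adjusted p = 0.229), and Cd36 lost the call in 9 of 16 fits with 1 mouse left out. Without the epidermal libraries, which leaves S451 alone in the HSALR vehicle group, Plin3 was at -0.04 and Cd36 at -0.05. G0s2 rose in control muscle as well (1.55, SE 0.34, adjusted p = 0.00843), where it was 1.20 without the epidermal libraries (adjusted p = 0.0875), and its r with Adipoq was 0.17. The monoglyceride lipase Mgll was the other gene that AICAR raised there (0.42, adjusted p = 0.0409), a call lost in 7 of 16 fits with 1 mouse left out and at 0.28 without the epidermal libraries. After AICAR, Mgll (-0.38, SE 0.11, adjusted p = 0.0238) and Lpl (-0.56, SE 0.18, adjusted p = 0.0386) were lower in HSALR than in control muscle, calls that were lost in 4 and 5 of 16 fits with 1 mouse left out. The summed level of the 11 genes had r = -0.136 with Adipoq (permutation p = 0.617).

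Among 9 adipogenic transcription factors, Cebpa (r = 0.799) and Pparg (0.659) were the ones that followed Adipoq, with a median r of -0.01 over the list. Neither passed the threshold in the comparisons of genotype or of AICAR: after vehicle, HSALR differed from control muscle by 0.01 for Cebpa (SE 0.30, adjusted p = 0.986) and 0.02 for Pparg (SE 0.24, adjusted p = 0.962). In HSALR muscle after vehicle 3 of the 9 were lower, Ebf2 (-0.52, SE 0.10, adjusted p = 0.00132), Rxra (-0.45, SE 0.09, adjusted p = 0.00172) and Cebpd (-1.48, SE 0.48, adjusted p = 0.0314). The Cebpd value rested on the control mouse S450, at 53.8 CPM against 7.28 and 10.2 CPM in the other 2 control mice and 4.91 to 13.5 CPM in HSALR muscle, and was -0.04 without it (adjusted p = 0.947). Mlxipl, a carbohydrate-sensing factor, rose with AICAR in HSALR muscle (1.07, SE 0.15, adjusted p = 0.000132), and was at 0.71 without the epidermal libraries (adjusted p = 0.17). Rxra was the other of the 2 that were higher there (0.23, adjusted p = 0.0397), and it lost the call in 8 of 16 fits with 1 mouse left out (adjusted p up to 0.0919). Without the epidermal libraries it was at 0.32, no smaller, with an adjusted p of 0.227. In control muscle AICAR lowered Ebf2 (-0.40, adjusted p = 0.0304, lost in 5 of 16 fits with 1 mouse left out), and none of the 9 passed between genotypes after AICAR.

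Of the brown adipocyte genes, Ucp1, the defining gene of brown fat, was at 0 in 15 libraries and at 0.0133 CPM in 1, and Cidea was at 0.37 to 1.94 CPM. Cox8b, Prdm16 and Otop1, of which muscle expresses Cox8b strongly (189 to 262 CPM), were the 3 of 5 tested genes lower in HSALR muscle after vehicle. The call of Cox8b was lost without S445 or S450 and that of Otop1 in 9 of 16 fits with 1 mouse left out (adjusted p up to 0.176). Cox8b went from -0.27 in that comparison (adjusted p = 0.013) to 0.22 for AICAR in HSALR muscle (adjusted p = 0.0216, lost without S453 or S463). Prdm16 was also lower in HSALR than in control muscle after AICAR (-0.60, adjusted p = 0.00197). AICAR in control muscle gave no call in this list. Of the 4 adipokine receptors, Adipor2 (0.20, SE 0.05, adjusted p = 0.00993) and Adipor1 (0.15, SE 0.05, adjusted p = 0.0315) rose with AICAR in HSALR muscle, and after vehicle Cdh13 was higher (0.28, SE 0.08, adjusted p = 0.0203) and Lepr lower (-0.75, SE 0.20, adjusted p = 0.0106) in HSALR muscle. Of these calls, Adipor1 was lost in 6 of 16 fits with 1 mouse left out (0.24 without the epidermal libraries), Cdh13 without S445 or S446 and Lepr without S450. Cdh13 was also higher in HSALR than in control muscle after AICAR (0.25, adjusted p = 0.0436, lost in 10 of 16 fits with 1 mouse left out). AICAR in control muscle gave no call among the receptors. Their r with Adipoq was -0.22 to 0.07, and the summed level had r = -0.0805 (permutation p = 0.767) and r = -0.621 with group means removed.

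**Figure D5:**
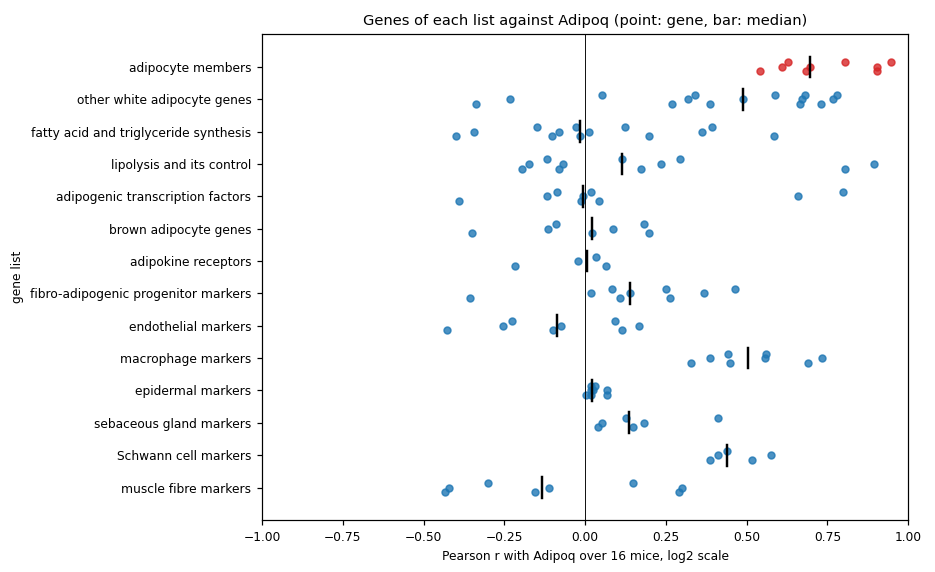
Pearson's r with Adipoq over the 16 mice (horizontal axis) for each gene (point) of the adipocyte genes and 13 other lists (rows), with the median of each list (bar). The 9 adipocyte genes lie between 0.542 and 0.947, macrophage and Schwann cell markers lie above 0, and epidermal markers lie at 0.

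Other cell types were followed through the summed CPM of their markers, in 11 relations with Adipoq. Macrophage markers (8 genes, 151 to 287 CPM) rose with it: r = 0.769 (permutation p = 0.0007, adjusted over the 11 relations 0.0077), rho = 0.785 (permutation p = 0.00058), r = 0.739 with group means removed and r = 0.691 without the 2 extreme mice, and 8 of 8 genes had a positive r. The most abundant, Lyz2, was at 150 CPM in S455, the mouse of highest Adipoq, against 63.1 to 101 CPM in the others. In HSALR muscle after vehicle 2 of the 8 were higher than in control, Cd68 (0.77, SE 0.20, adjusted p = 0.00942) and Csf1r (0.47, SE 0.13, adjusted p = 0.0149), while Cd163 (-0.40, SE 0.15, adjusted p = 0.0627) and Mrc1 (-0.23, SE 0.12, adjusted p = 0.18) were below 0 and did not pass. Cd68 lost the call without S445 (adjusted p = 0.0616) and Csf1r without S445 or S450 (adjusted p up to 0.0882). AICAR in HSALR muscle had Mrc1 (0.39, adjusted p = 0.0146) and Cd163 (0.38, adjusted p = 0.0455) higher and Csf1r lower (-0.32, adjusted p = 0.0468), the last 2 lost in 9 of 16 fits with 1 mouse left out each. Fcgr1 was higher in HSALR than in control muscle after AICAR (0.73, adjusted p = 0.0388, lost in 4 of 16 such fits). None of the 8 passed for AICAR in control muscle. Their part in the adipocyte gene levels was not tested.

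Schwann cell markers (5 genes, 116 to 333 CPM) had r = 0.5 with Adipoq (permutation p = 0.0472, adjusted 0.259) and r = 0.838 with group means removed. Of them only Pmp22 passed, lower in HSALR than in control muscle after AICAR (-0.70, adjusted p = 0.0391, lost in 6 of 16 fits with 1 mouse left out). Markers of fibro-adipogenic progenitors, the cells from which muscle adipocytes arise, had r = 0.323 (permutation p = 0.221, adjusted 0.607) over 9 genes and r = 0.758 with group means removed. The list included Dlk1, a preadipocyte gene, which AICAR raised in HSALR muscle (log2 fold change 3.88, SE 0.36, adjusted p = 3.8e-06) and in control muscle (2.74, SE 0.44, adjusted p = 0.00114) and whose own r with Adipoq was 0.08. In HSALR muscle 3 others of the 9 fell with AICAR, Lum (-0.43, adjusted p = 0.00459), Pi16 (-0.68, adjusted p = 0.00821) and Dpp4 (-0.48, adjusted p = 0.0117). In control muscle Pi16 fell as well (-0.91, adjusted p = 0.0132, lost without S446 or S449), and none of the 9 passed in the comparisons of genotype. Dcn, the most abundant of the list, ranged from 512 to 895 CPM.

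Endothelial markers were not tied to Adipoq (r = -0.15, permutation p = 0.58) and were lower in HSALR muscle after vehicle in 8 of 8 genes, against 11.5% of all genes tested that were lower there, such as Pecam1 (-0.47, SE 0.08, adjusted p = 0.000352). One of them, Egfl7 (-0.55, adjusted p = 0.029), lost the call without S445, S446, S452 or S453 (adjusted p up to 0.148). Without the epidermal libraries the 8 genes were still below 0, at -0.68 to -0.27, and none of them passed (adjusted p of 0.0796 to 0.344) in a fit that sets the lone mouse S451 against 2 controls and takes the spread from the other groups. After AICAR 3 of the 8 were lower in HSALR muscle, Pecam1, Cdh5 and Esam (-0.34 to -0.40), of which Esam lost the call in 1 of 16 fits with 1 mouse left out. AICAR had 4 higher in HSALR muscle, Pecam1, Tie1, Emcn and Esam (0.31 to 0.50), and Egfl7 lower in control muscle (-0.70, adjusted p = 0.029, lost in 4 of 16 such fits). Fabp4, which capillaries also express, was at -0.22 in HSALR against control muscle after vehicle (SE 0.15, adjusted p = 0.301). Muscle fibre markers had r = -0.352 (permutation p = 0.178, adjusted 0.607) and ranged 1.44-fold in sum. HSALR muscle had Acta1, Myh1 and Mb higher than control muscle after vehicle (0.31, 1.52 and 0.79) and after AICAR (0.46, 1.5 and 1.18). Reads of the human skeletal actin transgene may add to the Acta1 counts of HSALR mice, which was not tested. Myh4 was lower in HSALR than in control muscle after AICAR (-0.67, adjusted p = 0.0177, lost in 1 of 16 fits with 1 mouse left out). AICAR in HSALR muscle lowered Pvalb (-0.73, adjusted p = 0.000608), which was at -0.37 without the epidermal libraries (adjusted p = 0.197). Epidermal markers ranged 775-fold between libraries, with Krt5 at 0 to 48.5 CPM, and each of their 8 genes had an r between 0 and 0.07 with Adipoq. Of the sebaceous gland markers, from skin cells that also make lipid, Far2 was at 5.34 CPM in the highest library and at 0.0153 CPM in the lowest, and the r of these genes with Adipoq was 0.04 to 0.41. AICAR in HSALR muscle had Far2 (-4.62), Awat1 (-8.37) and Awat2 (-1.83) lower and Mc5r higher (1.13, adjusted p = 0.0139). Without the epidermal libraries Far2 was at -1.20, Awat2 at 0.09 and Mc5r at 0.82. Mc5r was also higher in HSALR than in control muscle after AICAR (1.46, adjusted p = 0.0123).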

How the data were processed

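Per the labels and the study's methods, gastrocnemius muscle was powdered, RNA was extracted and stranded poly(A) libraries were sequenced. The authors aligned reads to mm10 with STAR 2.5.2a (1 location kept for equal hits) and deposited counts of reads starting in any exon of each RefSeq gene; whether counting used the strand was not stated. The counts are raw, with 24454 genes in 16 libraries, and 80 Entrez identifiers matched no symbol. The members and gene lists were chosen with earlier results of these data known. Named are all 10 members, up to 4 genes of lowest p per list with its most abundant gene, and the 10 genes most like Adipoq; other genes named were chosen after their values were seen.

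Groups came from genotype and treatment labels; nothing states that mice were littermates, and p-values measure the spread between these mice. edgeR 4.0.16 (R 4.3.3; TMM scaling, filterByExpr, 1 mean per group, quasi-likelihood test, threshold 0.05) was fitted over all 15487 genes left, and its SEs follow from the F statistic. Normalized CPM used TMM factors. Correlations used scipy 1.17.1, a pseudocount of 0.5 and 100000 permutations, counted as passed after Benjamini-Hochberg over the 9 relations. The slope on Adipoq across all genes was added after seeing the data. Tests were tried on simulated data. Alternatives were DESeq2 1.42.0, limma 3.58.1 with voom, other scalings, filters, pseudocounts and sets of libraries. The comparison of AICAR-treated HSALR with vehicle-treated control mice was not made.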

Additional observations from a re-analysis of the deposited data

Results flagged for a closer look

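Samples far from the rest of their group were looked for with Dixon's test in the groups of 5 mice, over the 10 members and the 10 genes most like Adipoq, 40 groups in all, of which chance alone flags about 1 in 20, or 2. It picked out 2. Pck1 in the HSALR AICAR mouse S455 was at 12.5 CPM against 5.28 to 6.90 CPM in the other 4, the mouse with the highest Adipoq. Ccdc80 in the HSALR vehicle mouse S458 was at 59.2 CPM against 34.9 to 40.7 CPM in the other 4. The AICAR effects of the genotypes differed for none of these 20 genes.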

How the results depend on the processing

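No paired analysis was possible because the mice of different groups carry different identifiers. The count of 0 members past the threshold became 1 under these settings: HSALR against control after vehicle with only the groups compared in the fit (Lipe) or with Adipoq as a covariate (Fabp4), AICAR in HSALR with DESeq2, RLE scaling or Adipoq as a covariate (Fabp4 each time), and AICAR in control with Adipoq as a covariate (Scd1). Leaving out 1 mouse gave 0 to 2 for AICAR in HSALR (Fabp4 without S448, S449 or S462, Fabp4 and Lep without S458) and 0 to 0 for the other 4 comparisons. The Adipoq difference turned to -0.11 (after vehicle) and -0.26 (AICAR in control) without the epidermal libraries, and to -0.00061 for the difference between AICAR effects under library size scaling. With 1 mouse left out it ran from -0.11 to 0.61 (AICAR in control), -0.052 to 0.65 (after AICAR) and -0.33 to 0.39 (difference between AICAR effects), and Pck1 for AICAR in control from -1.25 to 0.10. Of the 50 differences, 31 changed sign in some alternative. The causes were not tested. Correlations with Adipoq passed in 9 of 9 genes by Pearson's r and in 7 by Spearman's rho. By r, 6 passed without the 2 extreme mice and 6 to 9 with 1 mouse left out. The slope over all genes passed for 6. The spread between mice, not depth, set the errors.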
